A study of Mus musculus with 8 samples.

Results

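The histone modifying enzyme genes described here are the mouse genes whose symbols begin with Kdm, Kmt, Setd, Hdac, Kat or Sirt followed by a digit, and whose level reached 1 TPM (a length-normalised share of each library's transcripts) in at least 2 libraries. Of 48709 genes in the deposited expression table, 62 carry such a name and 57 passed the level filter. They are 18 Kdm, 6 Kmt, 8 Setd, 11 Hdac, 7 Kat and 7 Sirt genes. The 5 names that did not pass are Kdm4d and Kdm4dl together with the pseudogenes Kat2b-ps, Kat6b-ps1 and Kat6b-ps2. One of the 57, Kdm6bos, is an RNA transcribed antisense to Kdm6b and not an enzyme gene. The rule itself uses names and levels and no measured difference between groups, but it was set with earlier results of these data known.

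The libraries were made from polyadenylated RNA of mouse bone marrow cells along the monocytic pathway, read as stranded pairs of 100 bases. In order of maturation, the groups are the monocyte and dendritic cell progenitor (MDP, 1 library), the common monocyte progenitor (cMoP, 2 libraries), the Ly6Chi monocyte (2 libraries) and the Ly6Clo monocyte (1 library), all labelled wild type. The remaining group holds Ly6Chi monocytes with a Upf2 knockout (2 libraries). The cMoP and control Ly6Chi libraries are also described as FL_FL, the usual notation for a floxed allele, although their genotype is labelled wild type. All groups were untreated and labelled healthy. The Cre driver, the age and the strain of the mice are not given in the sources used here, and the labels call the material both bone marrow and a cell line. No label ties the replicates to different mice, and the p-values therefore reflect only how these libraries vary, which may be technical.

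Histone lysine acetyltransferases (Kat) add acetyl groups to histone tails, and histone deacetylases (Hdac, zinc dependent, and Sirt, NAD dependent) remove them. Lysine methyltransferases (Kmt and Setd) write methyl marks that accompany active or silent chromatin depending on the residue, and lysine demethylases (Kdm) erase them. Several of these names belong to enzymes that work mostly outside chromatin, among them the mitochondrial sirtuins, the tubulin deacetylase Hdac6, the polyamine deacetylase Hdac10 and the actin methyltransferase Setd3. Intron retention leaves an intron in the polyadenylated transcript. Such transcripts often carry a premature stop codon, which can expose them to nonsense-mediated decay, the surveillance pathway in which Upf2 takes part.

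The progenitor marker Flt3 stood at 197 TPM in the MDP library and at 10.3 TPM or less in every other one. The 4 MDP markers, Flt3 among them, summed to 865 TPM in MDP but to 1643 TPM in Ly6Clo. Csf1r alone had 1629 TPM there. The summed cMoP markers were 23128 and 18819 TPM in the cMoP libraries against 4502 TPM in the MDP library. Of these 5 markers, 3 were higher and 1, Kit, was lower in cMoP than in MDP. The Ly6Chi markers summed to 5940 and 6557 TPM in control Ly6Chi libraries, 5561 and 3902 TPM in cMoP and 2284 TPM in Ly6Clo. Summed markers of Ly6Clo monocytes reached 5510 TPM in the Ly6Clo library and 1291 TPM or less elsewhere. Reads spliced across introns numbered 28925018 to 37833159 per library. Upf2 itself was not lower in the knockout, with 20.4 and 22.5 TPM in knockout against 20.2 and 18.2 TPM in control Ly6Chi libraries. Splicing of its exon 2 to exon 3, as a percentage of the median of 18 later junctions of the gene, was 12.7 and 14.2 in the knockout and 48.2 and 58.8 in the control. The second cMoP library stood apart, with 21.5 in that same measure against 40.0 in the first, 6.09 against 8.32 boundary reads per 100 spliced reads, and the strongest lean of spliced reads towards the 3′ end of transcripts.

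Kmt5a, which monomethylates H4K20, averaged highest over the 8 libraries with 153 TPM, followed by the nucleolar deacetylase Sirt7 with 121 TPM and the class I deacetylases Hdac1 with 107 TPM and Hdac2 with 74.1 TPM. Hdac5, a class IIa deacetylase that shuttles between nucleus and cytoplasm, came next with 70.7 TPM. The order differed between groups: Hdac1 was above Kmt5a in the MDP library, with 134 against 129 TPM, and Sirt7 and Hdac5 were above it in the Ly6Clo library, with 186 and 120 against 88.4 TPM. The members summed to 2063 TPM in MDP, 1616 and 1314 TPM in cMoP, 2056 and 1912 TPM in Ly6Chi and 2093 TPM in Ly6Clo libraries. The cMoP libraries therefore held the lowest sums along the pathway, the second lower than the first. In the knockout the sum was 1430 and 1678 TPM, below both control Ly6Chi libraries.

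**Figure D1:**
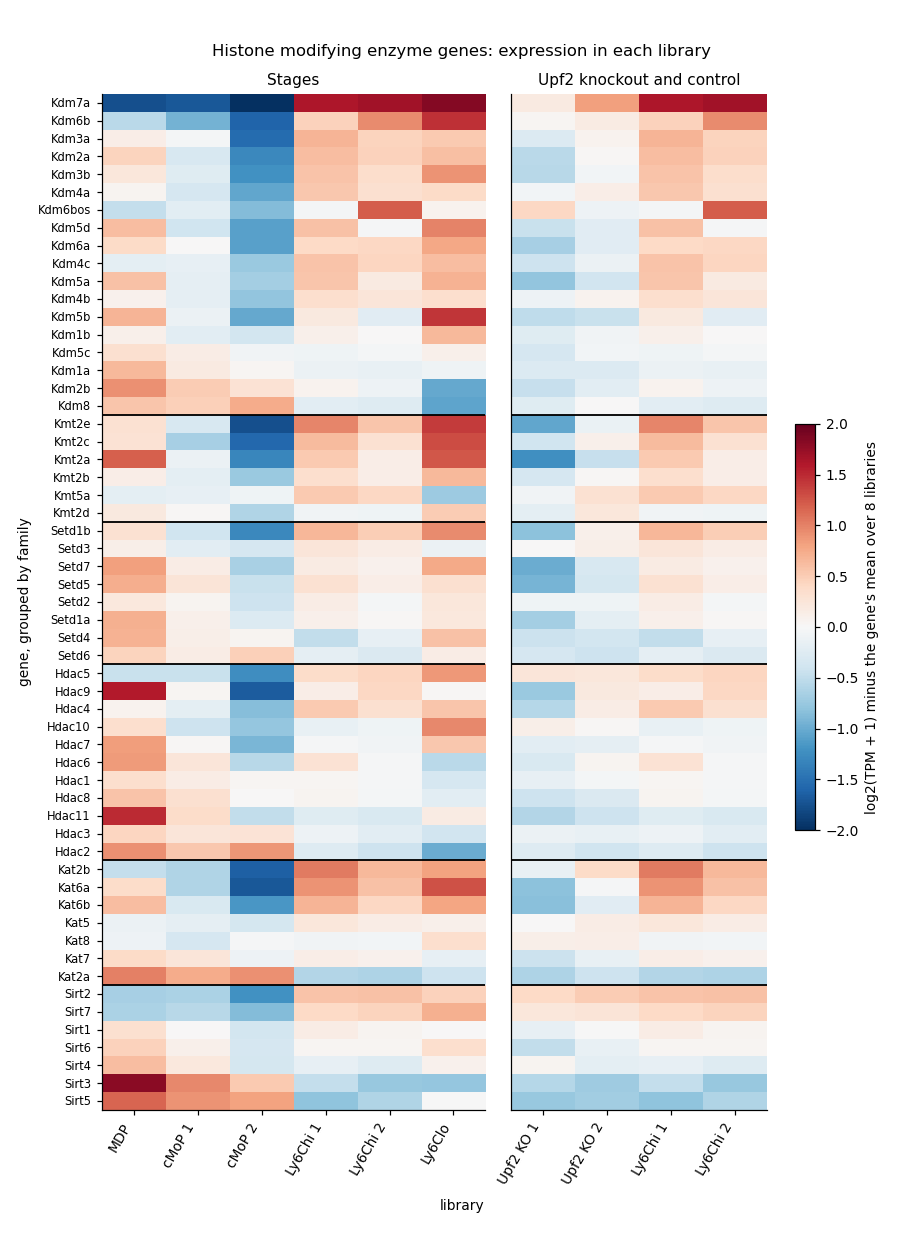
Rows are the 57 members grouped by family and columns are libraries, with the stages at left and the Upf2 knockout beside its control at right. Colour gives log2(TPM + 1) minus the gene's mean over all 8 libraries; the cMoP columns are pale to blue for most Kdm, Kmt and Setd genes, and Sirt3, Sirt5, Kat2a and Hdac2 run the other way.

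The largest set of calls separated Ly6Chi monocytes from cMoP. Of the 57 members, 22 rose and 7 fell in limma's test of log2(TPM + 1) at a Benjamini-Hochberg adjusted p under 0.05, taken over 13126 genes. Those are 38.6% and 12.3% of the members, beside 32.3% and 23.3% of all genes tested, so the rising share lay near the background and the falling share below it. All Ly6Chi libraries lay above all cMoP libraries in 31 members and below them in 10, beside 46.7% and 34.2% of all genes. The median gene itself rose by 0.19 on the log2 scale, and changes below are given relative to it. Each p-value tests the change before that subtraction. With the genes' median set to 0 before the test, 17 members were higher and 13 lower (29.8% and 22.8%), beside 25.6% and 34% of all genes. Quantile scaling gave 18 and 13 (31.6% and 22.8%), beside 28.2% and 33.7%. Centring within classes of transcript length gave 15 and 15 (26.3% each), beside 27.5% and 32.3%. Leaving out the second cMoP library gave 12 higher and 8 lower (51.6% of all genes called), leaving out the first Ly6Chi library 5 and 4 (28.8%), and leaving out the second Ly6Chi library 6 and 4 (30.5%). At an unadjusted p under 0.05 there were 34 members and 62.1% of all genes. The calls of 4 rising and 4 falling genes held under all 14 settings run. They are Kdm7a, Kdm6b, Sirt2 and Sirt7 among the higher, and Sirt5, Sirt3, Kat2a and Hdac2 among the lower. Median centring ended the calls of Kat5, Kdm5a, Kmt2b, Kmt5a and Setd3 and added Hdac1, Hdac8, Kdm1a, Kdm2b, Kdm5c and Setd4 as lower. Beside these calls, 7 of 8 neutrophil markers were higher in Ly6Chi, summing to 770 and 966 TPM against 241 and 226 TPM in cMoP libraries. Macrophage markers summed to 137 and 132 TPM in Ly6Chi against 15.7 and 5.77 TPM in cMoP (3 of 5 higher and 1 lower), and erythroid markers to 21.5 and 113 TPM against 14.7 and 2.68 TPM (4 of 5 higher). Of 6 B cell markers 4 were higher and 1 lower, at 519 and 523 TPM in Ly6Chi against 485 and 265 TPM in cMoP, and of 5 dendritic cell markers 3 were higher and 1 lower, at 17.6 and 17.6 TPM against 1.15 and 1.77 TPM. Of these lists only the dendritic cell marker Cd209a was at 0, in the second cMoP library. The part of the markers in the members' changes was not tested.

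Demethylases supplied the widest change. Kdm7a, a demethylase of the repressive marks H3K9 and H3K27 (chr6:39136623-39206789, minus strand, mm10), had 5.18 TPM in MDP, 5.45 and 2.31 TPM in cMoP, 63.1 and 66.0 TPM in Ly6Chi and 73.4 TPM in Ly6Clo libraries. Every monocyte library lay far above every progenitor library. The mean was 16.6-fold higher in Ly6Chi than in cMoP, and the relative log2 change was 3.63 ± 0.37 (SE, limma adjusted p = 0.000886). Kdm6b, also known as Jmjd3, removes methyl groups from H3K27 and is well studied in activated macrophages. It stood at 7.60 TPM in MDP, 5.43 and 3.12 TPM in cMoP, 16.1 and 23.1 TPM in Ly6Chi and 33.1 TPM in the Ly6Clo library. The Ly6Chi libraries did not overlap the cMoP libraries, and the relative change was 1.79 ± 0.28 (SE, limma adjusted p = 0.0029). Its antisense neighbour Kdm6bos ranged between 0.13 and 3.79 TPM and was not called, and whether the counting used strand is not stated, so reads of the pair may be shared. In all, 9 of 18 Kdm genes rose in Ly6Chi and 1 fell. The risers include Kdm2a, which acts on H3K36, at a relative log2 change of 1.15, and Kdm4a, a demethylase of H3K9 and H3K36, at 0.93. Kdm3b, Kdm4b and Kdm4c, which act on H3K9, and Kdm5a and Kdm5d, which act on H3K4, were the other risers beside Kdm7a and Kdm6b. The gene that fell is Kdm8, a JmjC-domain protein, with 4.76 and 4.55 TPM in Ly6Chi against 8.28 and 10.1 TPM in cMoP libraries. Kdm5c and Kdm5d are the X-linked and Y-linked copies of one gene and may share reads.

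Among methyltransferases 4 of 6 Kmt genes rose and none fell, while 2 of 8 Setd genes rose and 1 fell. Kmt2e, a trithorax-group protein with a divergent SET domain, measured 33.2 TPM in MDP, 21.2 and 7.20 TPM in cMoP, 53.2 and 39.5 TPM in Ly6Chi and 72.0 TPM in Ly6Clo. The cMoP libraries differed widely from each other in this gene, yet both lay below both Ly6Chi libraries; the relative log2 change was 1.60 ± 0.53 (SE, limma adjusted p = 0.0312). Kmt2c, the catalytic subunit of a COMPASS-like complex that monomethylates H3K4 at enhancers, changed by 1.40 ± 0.35 (SE, limma adjusted p = 0.012). Kmt2b, a related H3K4 methyltransferase, was called at 0.50 ± 0.24 (SE), and its sign turned to -0.020 under centring within classes of transcript length. Setd1b, a further writer of that mark, rose by 1.22 ± 0.40 (SE, limma adjusted p = 0.0278). Kmt5a rose by 0.41 ± 0.16 (SE, limma adjusted p = 0.0209), with 213 and 197 TPM in Ly6Chi against 131 and 139 TPM in cMoP, and the actin methyltransferase Setd3 by 0.27 ± 0.12 (SE, limma adjusted p = 0.0219). Setd6, known for methylating the NF-κB subunit RelA, was the Setd gene that fell.

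The acetyltransferase paralogues Kat2a and Kat2b moved in opposite directions. Kat2a (also Gcn5), the acetyltransferase of the SAGA complex, had 72.3 TPM in MDP, 60.3 and 67.8 TPM in cMoP, 23.3 and 23.0 TPM in Ly6Chi and 26.4 TPM in Ly6Clo. Replicates lay close together and the groups did not overlap, with a relative change of -1.62 ± 0.14 (SE, limma adjusted p = 0.00099). Kat2b (also Pcaf), its alternative in the same kind of complex, had 14.4 TPM in MDP, 13.1 and 5.88 TPM in cMoP, 42.7 and 32.4 TPM in Ly6Chi and 36.4 TPM in Ly6Clo libraries, a relative change of 1.76 ± 0.38 (SE, limma adjusted p = 0.0082). This call was made under 13 of 14 settings. The MDP library thus had a Kat2b to Kat2a ratio of 0.199, the cMoP libraries 0.217 and 0.0867, the Ly6Chi libraries 1.83 and 1.41 and the Ly6Clo library 1.38. Kat2a was the more abundant of the pair in every progenitor library and Kat2b in every wild-type monocyte library. Kat6a (MOZ), a histone H3 acetyltransferase needed for blood stem cells, rose by 1.70 ± 0.43 (SE, limma adjusted p = 0.0134), while Kat7, the acetyltransferase of the HBO1 complex, was not called at -0.15 ± 0.17 (SE, limma adjusted p = 0.847). The Kat6a paralogue Kat6b and the NuA4 enzyme Kat5 were also called higher.

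The upstream sequences of 3 of these genes are shown, Kat2a and Kat2b because the paralogues moved in opposite directions and Kdm7a because it changed most. They are the 250 bases before a start that RefSeq annotates on GRCm38 (mm10), in the direction of transcription, with motif matches in capitals. Kat2a lies at chr11:100712468-100712717 (minus strand), Kat2b at chr17:53566721-53566970 (plus strand) and Kdm7a at chr6:39206774-39207023 (minus strand).
Kat2a: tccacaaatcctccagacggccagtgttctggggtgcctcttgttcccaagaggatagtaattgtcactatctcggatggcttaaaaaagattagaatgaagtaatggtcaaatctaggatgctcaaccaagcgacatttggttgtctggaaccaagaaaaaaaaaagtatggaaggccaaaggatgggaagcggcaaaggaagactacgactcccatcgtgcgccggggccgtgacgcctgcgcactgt
Kat2b: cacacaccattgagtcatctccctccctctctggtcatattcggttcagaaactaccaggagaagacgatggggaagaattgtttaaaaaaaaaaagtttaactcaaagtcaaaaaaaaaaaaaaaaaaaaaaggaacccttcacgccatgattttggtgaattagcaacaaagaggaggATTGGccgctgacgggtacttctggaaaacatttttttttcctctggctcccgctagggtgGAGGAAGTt
Kdm7a: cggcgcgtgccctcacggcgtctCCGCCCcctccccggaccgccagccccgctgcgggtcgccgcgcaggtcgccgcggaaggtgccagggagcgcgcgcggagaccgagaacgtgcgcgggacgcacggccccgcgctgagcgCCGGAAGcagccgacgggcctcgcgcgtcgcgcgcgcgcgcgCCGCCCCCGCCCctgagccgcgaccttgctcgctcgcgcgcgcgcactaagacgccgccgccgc
Motifs were searched on both strands as plain letters: the GC box GGGCGG, the ETS core CCGGAAG, the box CCAAT, the E2F word TTTGGCGC, the TATA word TATAAA and the PU.1 word GAGGAAGT. None of the 6 was found in the Kat2a window. RefSeq gives a second Kat2b window (chr17:53583876-53584125, plus strand), which held none either. The Kat2b window shown, the one nearer the GENCODE start of the gene, held 1 CCAAT match on the minus strand and 1 GAGGAAGT match on the plus strand. GENCODE starts Kat2b at position 53566861, inside that window, and both matches lie after this start. Kdm7a held 3 GC boxes and 1 ETS core in a window of 82.0% G and C. A RefSeq window could be matched for 44 of 57 members. The GC box occurred in 65.9% of them beside 35.4% of 27025 genes of the table, expressed or not. It was present in 9 of the 13 matched members that rose and in 5 of the 6 that fell. GAGGAAGT occurred in 2.27% of members and 2.79% of all genes. These matches describe letters in a window and not bound sites.

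Of the 11 Hdac genes, 1 rose and 2 fell. Hdac2, a class I deacetylase, had 126 TPM in MDP, 97.3 and 124 TPM in cMoP, 55.7 and 50.2 TPM in Ly6Chi and 33.1 TPM in Ly6Clo, so each monocyte library was below each progenitor library. Its relative log2 change from cMoP was -1.23 ± 0.16 in Ly6Chi (SE, limma adjusted p = 0.00366). Hdac1, the paralogue with which Hdac2 shares the Sin3, NuRD and CoREST complexes, had 134 TPM in MDP, 118 and 109 TPM in cMoP, 109 and 105 TPM in Ly6Chi and 83.5 TPM in Ly6Clo. Its relative change was -0.28 ± 0.12 (SE). Hdac1 was not called in the test, which takes the change before the median gene's rise of 0.19 is subtracted (limma adjusted p = 0.563). It was called lower once the genes' median was set to 0. The MDP library had an Hdac1 to Hdac2 ratio of 1.06, the cMoP libraries 1.21 and 0.877, the Ly6Chi libraries 1.95 and 2.09 and the Ly6Clo library 2.52. Hdac3, the catalytic subunit of the NCoR and SMRT complexes, fell by 0.62 ± 0.12 on the log2 scale relative to the median gene (SE). Its change as tested was -0.42 (limma adjusted p = 0.0267). Hdac5 had a relative rise of 1.05. The other 8 Hdac genes were not called in this comparison.

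Of the 7 sirtuins, 2 rose and 2 fell. The mainly cytoplasmic deacetylase Sirt2 had 32.0 TPM in MDP, 32.5 and 21.4 TPM in cMoP, 76.3 and 77.1 TPM in Ly6Chi and 71.0 TPM in Ly6Clo, and rose by 1.31 ± 0.21 (SE, limma adjusted p = 0.0026). Sirt7 had 72.5 TPM in MDP, 76.9 and 61.8 TPM in cMoP, 150 and 154 TPM in Ly6Chi and 186 TPM in Ly6Clo, with a relative log2 change of 0.93 ± 0.14 (SE, limma adjusted p = 0.00183). For both genes the 3 wild-type monocyte libraries stood above all progenitor libraries. Both genes that fell encode mitochondrial enzymes. Sirt3, the main mitochondrial deacetylase, had 86.8 TPM in MDP, 47.8 and 35.2 TPM in cMoP, 16.9 and 13.8 TPM in Ly6Chi and 13.7 TPM in Ly6Clo, and fell by 1.56 ± 0.20 (SE, limma adjusted p = 0.00326). Sirt5, which removes succinyl groups, had 7.19 TPM in MDP, 5.84 and 5.38 TPM in cMoP, 1.1 and 1.42 TPM in Ly6Chi and 2.65 TPM in Ly6Clo, a change of -1.75 ± 0.18 (SE, limma adjusted p = 0.00148). Being low, Sirt5 is understated by the added 1 TPM; its mean in TPM was 4.45-fold lower in Ly6Chi. The third mitochondrial sirtuin, Sirt4, was not called, at -0.34 ± 0.24 (SE, limma adjusted p = 0.624).

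**Figure D2:**
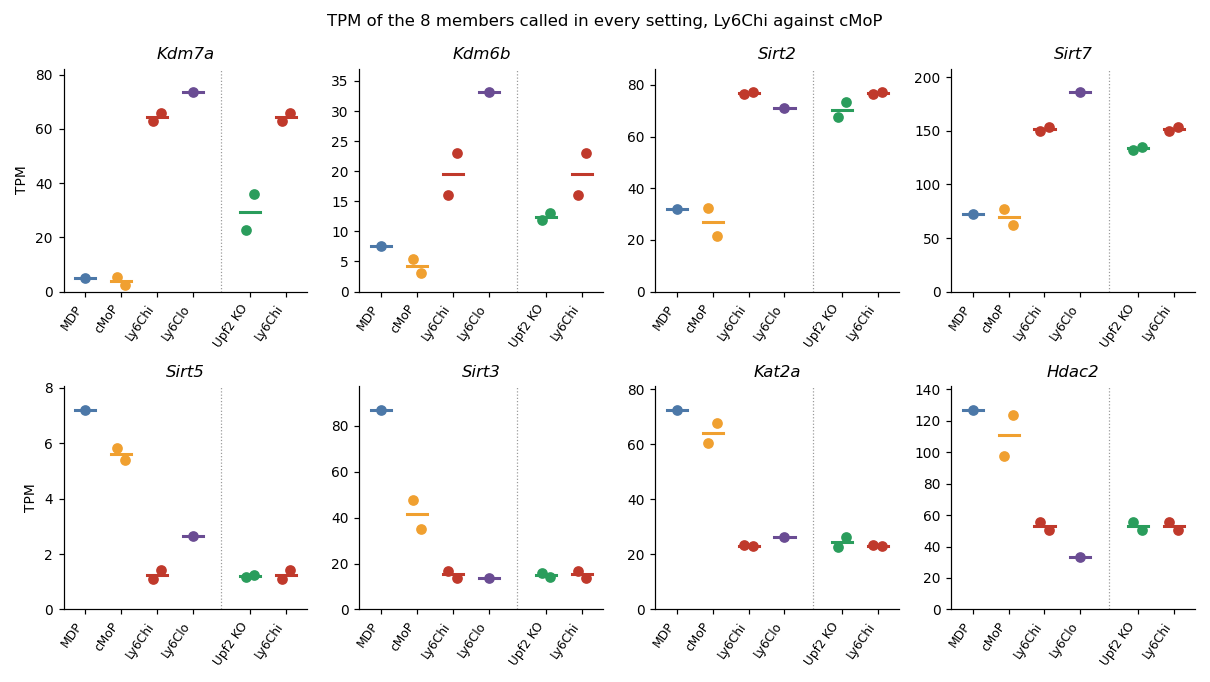
TPM (vertical axis, from 0) of the 8 members called in each of the 14 settings, one panel a gene. Points are libraries and bars are group means, with the 4 stages left of the dotted line and the Upf2 knockout and its control right of it; for Kdm7a the Ly6Chi points lie at 63.1 and 66.0 TPM and the cMoP points at 5.45 and 2.31 TPM.

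The members have long transcripts, and their changes varied with length. The longest protein-coding transcript of a member had a median of 4653 bases, against 2721 bases over 13087 genes with a length, and 22 of 57 members had 6195 bases or more, the length that the longest 1309 genes reach. Across the 57 genes, which are not independent replicates, length and relative change correlated at Pearson r = 0.48 for Ly6Chi against cMoP, beside 0.17 over all genes. For cMoP against MDP the values were -0.57 and -0.14, and for the knockout against control Ly6Chi -0.62 and -0.34. Among genes of that length the median relative change from cMoP to Ly6Chi was 0.83 for the 22 members and 0.50 for all 1309. Coverage moved with these comparisons too. The median lean of spliced reads to the 3′ end, on the log2 scale over 38 measurable members, was 0.60 and 0.71 in Ly6Chi against 1.00 and 1.34 in cMoP, and 1.26 and 1.03 in knockout against 0.60 and 0.71 in control Ly6Chi libraries. How far this lean enters the changes of long members was not tested. Sirt2, Sirt7, Kdm6b, Kdm7a, Sirt3, Sirt5, Kat2a and Hdac2 kept their calls when each gene was centred within its length class.

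**Figure D3:**
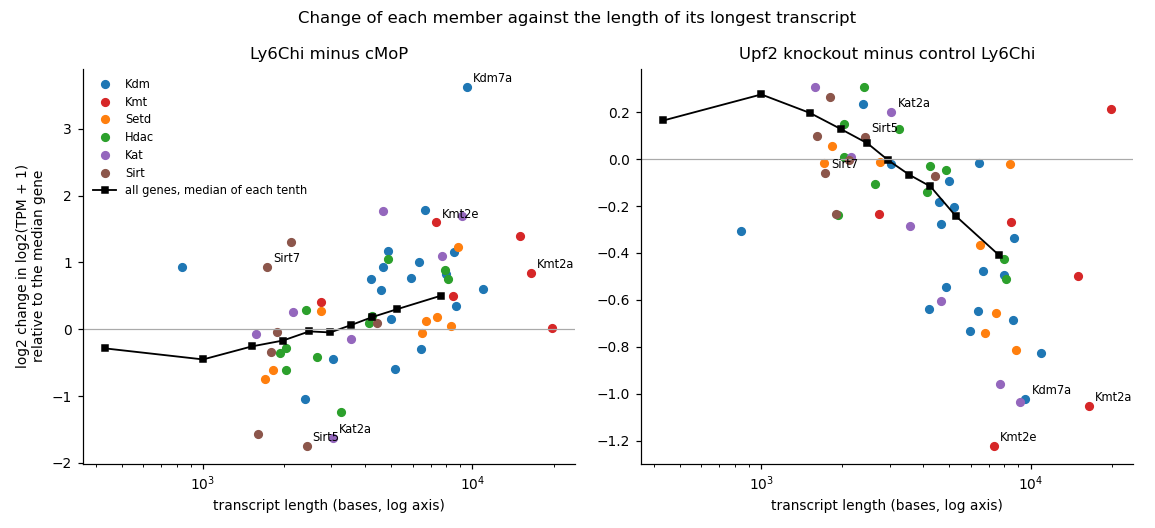
Relative log2 change (vertical axis) of each member against the length of its longest protein-coding transcript (bases, log axis), for Ly6Chi minus cMoP at left and Upf2 knockout minus control Ly6Chi at right. Colours are families and black squares are medians of all genes in 10 classes of length; the long members Kmt2a and Kmt2e lie above 0 at left and below 0 at right, while Kmt2d, the longest at 19823 bases, lies at 0.02 at left and 0.21 at right.

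Set against MDP, cMoP showed no called member. At an adjusted p under 0.05, limma called 0 of 57 members where it called 3.87% of all genes (1.35% higher and 2.52% lower), and 20 members had an unadjusted p under 0.05, beside 26.9% of all genes. Both cMoP libraries lay below the single MDP library in 48 of 57 members, or 84.2%, beside 59.1% of all genes, and the median relative change of the 57 was -0.31, on top of the 0.28 by which the median gene fell. Without the first cMoP library the median log2 change as measured was -0.87 for the members and -0.40 for all genes. Without the second cMoP library it was -0.35 and -0.19. Sirt3 had 47.8 and 35.2 TPM in cMoP against 86.8 TPM in MDP, and Kmt2a, the MLL1 methyltransferase of H3K4, had 8.36 and 3.11 TPM against 22.2 TPM. Neither passed the test. Sirt7, Hdac1 and Kmt5a had relative changes of 0.21 ± 0.17, 0.05 ± 0.14 and 0.35 ± 0.19 (SE). Markers of other cells were lower in cMoP too. All 8 neutrophil markers were lower, summing to 241 and 226 TPM in cMoP against 825 TPM in MDP. So were all 5 dendritic cell markers, at 1.15 and 1.77 TPM against 55.2 TPM. All 5 erythroid, all 6 T and NK cell and 5 of 6 B cell markers were lower as well. Among these markers Cd3e, Cd3g and Cd209a were at 0 in the second cMoP library. Of 5 macrophage markers, 2 were higher and 3 lower. Their part in the members' lower levels was not tested. With 1 MDP library this comparison takes its spread from the other groups.

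The Ly6Clo library differed from the Ly6Chi libraries in 3 members, 1 higher and 2 lower, while limma called 5.9% of all genes higher and 7.12% lower. Because there is 1 Ly6Clo library, the spread in this comparison comes from the replicated groups, cMoP and knockout included. Kmt5a, whose H4K20 mark rises and falls through the cell cycle, had 88.4 TPM in Ly6Clo against 213 and 197 TPM in Ly6Chi, the lowest of all libraries, with a relative log2 change of -1.24 ± 0.19 (SE, limma adjusted p = 0.0133). Kdm2b, which recruits a variant Polycomb complex to CpG islands, had 15.9 TPM in Ly6Clo against 35.3 and 31.2 TPM in Ly6Chi, a change of -1.05 ± 0.20 (SE, limma adjusted p = 0.0269). Its level along the pathway was 64.0 TPM in MDP, 47.8 and 41.0 TPM in cMoP and lower still in both kinds of monocyte. Hdac10 rose, with 29.7 TPM in Ly6Clo against 13.2 and 13.9 TPM in Ly6Chi libraries and a change of 1.04 ± 0.22 (SE, limma adjusted p = 0.0307). Kdm5b, a demethylase of H3K4, showed a larger difference of 1.41 ± 0.41 (SE) but an adjusted p of 0.0779 in limma, with 14.9 TPM in Ly6Clo against 5.75 and 4.01 TPM. At an unadjusted p under 0.05 there were 9 members and 28.3% of all genes. No member was called without the first or the second Ly6Chi library, when 4.47% and 4.64% of all genes were. With the first or the second cMoP library left out 11 members were called, beside 28.1% and 27.8% of all genes, and with the first or the second knockout library left out 1 was, beside 7.18% and 7.23%.

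Markers of other cells were higher in the Ly6Clo library as well. All 8 neutrophil markers were higher, summing to 2784 TPM in Ly6Clo against 770 and 966 TPM in Ly6Chi. All 5 macrophage markers were higher too, at 830 TPM in Ly6Clo against 137 and 132 TPM, and 4 of 5 dendritic cell markers, at 171 TPM against 17.6 and 17.6 TPM. So were all 6 B cell markers, at 748 TPM against 519 and 523 TPM, all 5 erythroid markers, at 191 TPM against 21.5 and 113 TPM, all 4 megakaryocyte and platelet markers, at 18.2 TPM against 1.26 and 1.35 TPM, and 5 of 6 T and NK cell markers, at 2.35 TPM against 1.1 and 0.88 TPM. No marker of these lists was at 0 in the Ly6Clo library. Their part in the changes of Kmt5a, Kdm2b and Hdac10 was not tested, and in bulk RNA fewer cells of a type cannot be told apart from less RNA per cell.

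In the Upf2 knockout no member was called, and limma called 0.00762% of all genes, a single one. Unadjusted p-values under 0.05 were found for 8 members, all lower: Kmt2e, Kmt2a, Kat6a, Kdm7a, Kat6b, Kdm5a, Setd5 and Kdm4c, with adjusted p between 0.336 and 0.342 in limma, while 14.6% of all genes had such an unadjusted p. Kdm7a had 22.7 and 36.0 TPM in knockout against 63.1 and 66.0 TPM in control Ly6Chi libraries, a relative change of -1.02. Kmt2e had 12.5 and 24.2 TPM in knockout against 53.2 and 39.5 TPM in control libraries, a change of -1.22. In both genes the knockout libraries lay below the control libraries without overlap. That was so for 41 members, 71.9% of them, and 2 members were higher without overlap, beside 45.5% and 22.8% of all genes. The smallest two-sided p an exact permutation test of 2 against 2 can give is 0.333. Relative log2 changes were small for Sirt7 at -0.06 ± 0.14, Hdac1 at 0.01 ± 0.12 and Setd3 at -0.01 ± 0.12 (SE). In TPM these genes were still lower in the knockout without overlap, and they are among the 41 members. Kdm2a, Kat7 and Kmt5a, the most abundant of their families by the mean over all 8 libraries, were at -0.68 ± 0.35, -0.28 ± 0.17 and -0.23 ± 0.16 (SE), with adjusted p between 0.347 and 0.349 in limma. Markers of several lists were lower in the knockout as well. They were 4 of 5 macrophage markers, summing to 92.7 and 90.0 TPM in knockout against 137 and 132 TPM in control libraries. Also lower were 5 of 6 Ly6Clo markers, all 4 MDP markers and 4 of 6 B cell markers, the last at 383 and 389 TPM against 519 and 523 TPM. Of 5 cMoP markers 2 were higher and 2 lower, at 5255 and 5581 TPM in knockout against 4207 and 4881 TPM in control libraries. Of 4 Ly6Chi markers 1 was higher and 3 lower, at 5939 and 6694 TPM in knockout against 5940 and 6557 TPM in control libraries. Of 8 neutrophil markers 1 was higher and none lower, at 1290 and 942 TPM in knockout against 770 and 966 TPM in control libraries. No marker of these lists was at 0, and their part in the members' lower levels was not tested. The ratio of Kat2b to Kat2a was 0.798 and 1.02 in knockout against 1.83 and 1.41 in control libraries.

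The members act in complexes and beside other enzymes, and 7 lists of such genes were read in the same fit for Ly6Chi against cMoP, where 32.3% of all genes rose and 23.3% fell. Of 25 other histone methyltransferases 6 rose and 12 fell, the arginine methyltransferase Prmt5 and the lysine methyltransferase Smyd2 among them. Smyd2 had 7.28 and 8.41 TPM in Ly6Chi against 58.1 and 77.5 TPM in cMoP. Of 10 other acetyltransferases and coactivators 6 rose and 2 fell. Ncoa3, a nuclear receptor coactivator, had 74.5 and 62.4 TPM in Ly6Chi against 16.6 and 8.51 TPM in cMoP, and Hat1, which acetylates newly made histone H4, was among those that fell. Of 6 other demethylases 2 rose and 1 fell. Partners of the deacetylases rose in 11 of 25 cases and fell in 3, partners of the acetyltransferases rose in 9 of 39 and fell in 8, and COMPASS partners of the Kmt2 and Setd1 enzymes rose in 2 of 14 and fell in 6. Dpy30 and Wdr5, core subunits shared by all COMPASS complexes, were both among the falling, with Wdr5 at 41.8 and 38.0 TPM in Ly6Chi against 77.9 and 81.6 TPM in cMoP. Polycomb genes rose in 5 of 21 cases and fell in 3. In the knockout none of these lists held a called gene.

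Retention was read from the deposited intron tables, which list 1190 introns of 56 members, 1009 of them free of marks for overlap with other features. The retention ratio is the authors' intron depth over depth plus spliced reads, so 0.1 stands for about 1 transcript in 10 keeping the intron. Of 746 member introns measured in every library, 6.70% had a ratio of at least 0.1 in the MDP library (95% Wilson interval 5.12 to 8.73%), 6.03 and 1.47% in the cMoP libraries, 6.30 and 6.03% in the Ly6Chi libraries and 8.98% in the Ly6Clo library (95% Wilson interval 7.13 to 11.2%). Over 74572 introns of all genes the shares were 5.88%, 4.23 and 1.42%, 5.83 and 5.49%, and 7.86%. In the knockout the members' share was 4.42 and 5.09%, against 6.30 and 6.03% in control Ly6Chi. Over all introns it was 3.06 and 3.60% in the knockout, against 5.83 and 5.49% in the control. The second cMoP library had the lowest share and the Ly6Clo library the highest, for members and all introns alike. The group means were 3.75 ± 3.22% in cMoP, 6.17 ± 0.19% in Ly6Chi and 4.76 ± 0.47% in knockout libraries (SD, n = 2).

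No member intron passed the test for a change in retention. Boundary reads were tested against spliced reads as an interaction in edgeR's quasi-likelihood test, over 48132 introns of which 468 in 46 member genes. At an adjusted p under 0.05, 0 member introns were called in cMoP against MDP, Ly6Chi against cMoP, Ly6Clo against Ly6Chi and knockout against control, beside 0%, 0.0145%, 0% and 0.00208% of all introns. Unadjusted p-values under 0.05 numbered 25, 33, 22 and 21 of 468 in that order, beside 8.35%, 10.9%, 4.97% and 6.94% of all introns, and DESeq2 called 0 member introns in each. With boundary and spliced reads scaled apart (TMM), edgeR called 0, 1, 0 and 1 member introns, beside 0.0187%, 0.409%, 0.0623% and 0.129% of all introns. Without the first cMoP library 30 member introns (6.41%) were called in cMoP against MDP and 46 (9.83%) in Ly6Chi against cMoP, 29 of the 30 and 45 of the 46 with less retention in the remaining second cMoP library. The shares of all introns called in those fits were higher, at 10.3% and 14.5%. Without the second cMoP library 0 member introns were called in both, beside 0.0187% and 0.0727% of all introns.

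Hdac10 held the most retained introns of the members. Among 743 introns in 48 genes that had 10 or more spliced reads per library, 37 had a mean ratio of 0.1 or more (4.98%, beside 4.05% of 74311 introns of all genes), and 10 of those 37 belong to Hdac10 (chr15:89123307-89128700, minus strand). Its 18 ranked introns had a median ratio of 0.134, against 0.00808 over all members' introns. Retained introns were short, with a median of 230 bases against 1144 bases for the others. Of 44 ranked introns that lie inside an annotated exon of another transcript of the gene 10 were retained by this measure, and of the remaining 699 it was 27.

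The 4 introns below are shown as the most retained of Hdac10, Hdac6 and Sirt7 for which the annotated transcripts contain the intron's letters. Each runs 5′ to 3′ on its gene's strand, with the splice donor GT and acceptor AG in capitals, and was read from GENCODE transcripts in which it is kept (mm10).
Hdac10, chr15:89124429-89124531: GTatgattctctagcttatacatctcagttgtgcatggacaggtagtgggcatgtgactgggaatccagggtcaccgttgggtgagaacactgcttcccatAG
Hdac10, chr15:89127692-89127921: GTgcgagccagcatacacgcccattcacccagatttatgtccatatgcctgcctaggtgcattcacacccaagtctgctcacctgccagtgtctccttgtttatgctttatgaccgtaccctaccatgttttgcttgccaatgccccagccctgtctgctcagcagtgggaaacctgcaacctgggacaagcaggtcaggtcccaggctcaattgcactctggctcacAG
Hdac6, chrX:7939533-7939605: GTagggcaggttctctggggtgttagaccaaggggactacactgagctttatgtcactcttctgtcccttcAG
Sirt7, chr11:120620505-120620646: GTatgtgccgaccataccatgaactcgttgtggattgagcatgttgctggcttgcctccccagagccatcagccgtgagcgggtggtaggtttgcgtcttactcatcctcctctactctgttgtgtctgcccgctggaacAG
All 4 lie on the minus strand. The first is intron 4 of 6 of the non-coding transcript Hdac10-206; the coding transcript Hdac10-201 uses the same donor with a more distant acceptor. The other 3 lie between coding exons, as intron 3 of 19 of Hdac10-201, intron 13 of 28 of Hdac6-201 and intron 7 of 9 of Sirt7-201. Read in frame from the exon before it, the Hdac6 intron holds a stop codon TGA at its position 43 and the Sirt7 intron a TGA at its position 76. The second Hdac10 intron holds none, and its 230 bases are not a multiple of 3.

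The 103-base Hdac10 intron had the highest mean ratio of any ranked member intron, 0.483. Ratios were 0.498 for MDP, 0.377 and 0.200 for cMoP, 0.544 and 0.497 for Ly6Chi and 0.585 for Ly6Clo libraries. Reads across its 2 boundaries together exceeded spliced reads in all of these but the second cMoP library, where 32 boundary reads stood beside 68 spliced reads. In the knockout the ratio was 0.593 and 0.568, against 0.544 and 0.497 in the control. The fitted difference in retention, Ly6Chi minus cMoP, was 1.53 ± 0.48 on the log2 scale (SE) and did not pass edgeR's test (adjusted p = 0.414). Taking Hdac10 out lowered the members' share with a ratio of at least 0.1 to 5.49% in MDP, 2.95% in cMoP, 4.81% in Ly6Chi, 7.83% in Ly6Clo and 3.43% in the knockout.

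**Figure D4:**
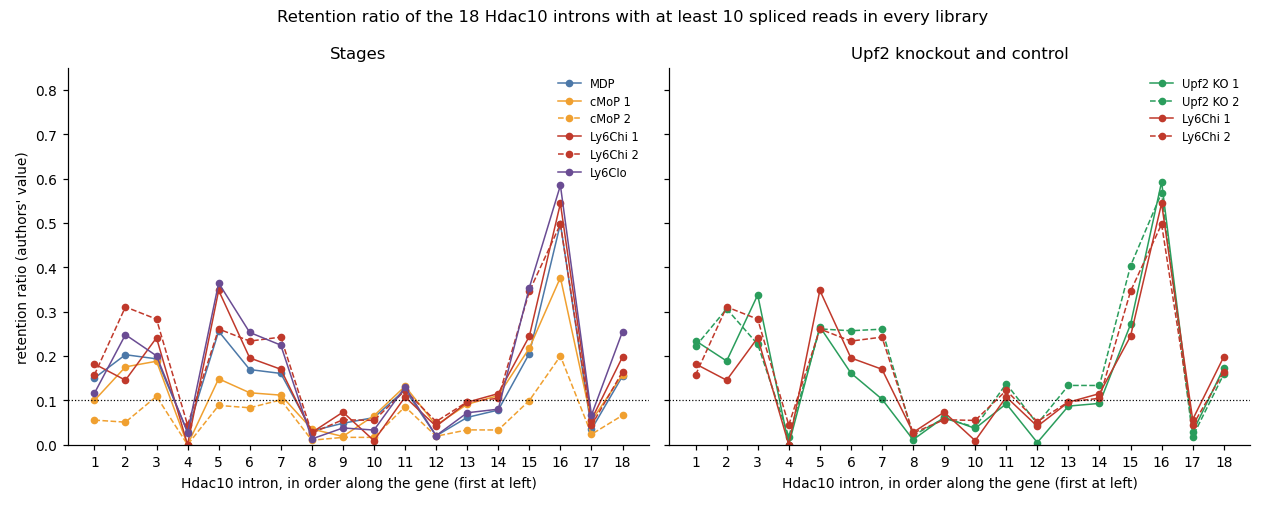
Authors' retention ratio (vertical axis) of the 18 ranked Hdac10 introns in order along the gene, with a line per library; stages at left, Upf2 knockout and control at right, and the dotted line at a ratio of 0.1. The 103-base intron is the peak in every library, and the second cMoP library, the dashed cMoP line, runs lowest over most of the gene.

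The remaining 27 of the 37 introns belong to other members. In Sirt7 the 142-base intron had ratios of 0.201 in the MDP library, 0.133 and 0.0664 in cMoP, 0.222 and 0.134 in Ly6Chi and 0.286 in Ly6Clo, on 55 to 484 boundary reads per library. Among the stage libraries the Ly6Clo one was highest and the second cMoP one lowest, as for the 103-base Hdac10 intron. The knockout had 0.137 and 0.169, against 0.222 and 0.134 in control Ly6Chi libraries. The Hdac6 intron had 0.194 in the MDP library, 0.210 and 0.0802 in cMoP, 0.118 and 0.179 in Ly6Chi and 0.308 in Ly6Clo, on at most 27 boundary reads. An intron before the coding sequence of Setd1a, a COMPASS methyltransferase (chr7:127777785-127778112, plus strand), averaged 0.216. Besides the pair shown, the most retained Hdac10 introns were intron 15 (chr15:89124589-89124712) with a mean ratio of 0.268, intron 5 (chr15:89127219-89127385) with 0.249 and intron 2 (chr15:89128019-89128184) with 0.204. An intron of Hdac2 (chr10:36997046-36998473, transcript Hdac2-204) and one of Kat7 (chr11:95291583-95306186, transcript Kat7-208) had no spliced read in any library and a ratio of 1 in all, so their ratio holds no information on splicing.

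In Kmt2e the call of an intron differed between settings. Intron 17 of 26 (chr5:23493508-23495985, plus strand, 2478 bases) lies inside an exon of the annotated non-coding transcript Kmt2e-208. The 60 bases across that donor are given because nearly all boundary reads fall there, 30 exon bases first, with the GT of the intron in capitals (chr5:23493478-23493537, plus strand).
Kmt2e: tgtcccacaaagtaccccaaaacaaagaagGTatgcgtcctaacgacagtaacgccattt
Reads across this 5′ boundary numbered 48 in the MDP library, 81 and 38 in cMoP, 54 and 72 in Ly6Chi and 48 in Ly6Clo, while those across the 3′ boundary numbered 10 or fewer in every library. Spliced reads varied more, with 156 in the MDP library, 135 and 30 in cMoP, 306 and 223 in Ly6Chi and 304 in Ly6Clo. The knockout had 55 and 54 reads across the 5′ boundary and 45 and 96 spliced reads, against 54 and 72 and against 306 and 223 in control Ly6Chi. Boundary counts thus differed between groups less than spliced counts did. The authors' ratio, averaged over the whole intron, was at most 0.0436. With boundary and spliced reads scaled apart, edgeR called this intron in Ly6Chi against cMoP at -2.02 ± 0.42 (SE, adjusted p = 0.0151) and in knockout against control at 1.95 ± 0.42 (SE, adjusted p = 0.0396). With one scaling for both kinds of reads it was -1.71 ± 0.50 (SE, adjusted p = 0.414) and 1.64 ± 0.50 (SE, adjusted p = 0.716). DESeq2 did not call it in either comparison, at -1.75 ± 0.68 and 1.66 ± 0.67 (SE). Nor did edgeR with one scaling and the replicate block or no count filter. Leaving out a single control Ly6Chi or knockout library gave 1.15 ± 0.61 to 2.19 ± 0.64 (SE) in knockout against control. None of these fits called it, and neither did the fit without the second cMoP library (1.62 ± 0.38, SE, in that comparison). With that one scaling edgeR also called it in knockout against control when only those groups were fitted (1.61 ± 0.36, SE, adjusted p = 0.0475) and without the first cMoP library (1.60 ± 0.34, SE, adjusted p = 0.0389). Without that library it was called in Ly6Chi against cMoP (-2.25 ± 0.52, SE, adjusted p = 0.0106) and in cMoP against MDP (2.01 ± 0.59, SE, adjusted p = 0.04) as well.

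The first intron of Kdm7a (chr6:39181614-39206440, minus strand, 24827 bases) showed reads across its 5′ boundary mainly in the knockout. They numbered 15 and 15 in knockout against 1 and 1 in control Ly6Chi libraries, beside 19 and 78 spliced reads in knockout against 202 and 228 in control. The MDP library and both cMoP libraries had 0 reads there, and the Ly6Clo library had 2. At the 3′ boundary there were 0 and 2 reads in knockout and 2 and 6 in control libraries. The intron did not pass the count filter of the test. Without that filter, edgeR gave 3.97 ± 0.72 (SE, adjusted p = 0.00017) for knockout against control; this intron and the Kmt2e one were singled out after their values were seen.

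**Figure D5:**
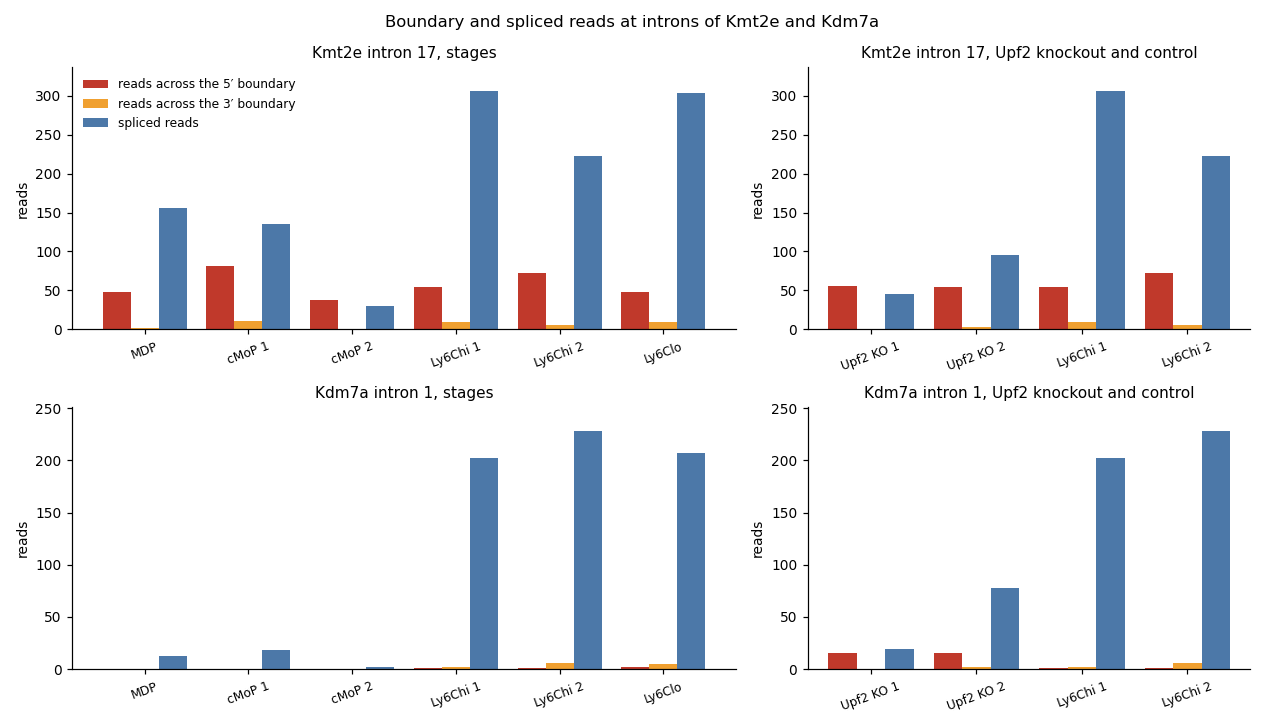
Reads across the 5′ boundary, across the 3′ boundary and spliced across Kmt2e intron 17 (top) and Kdm7a intron 1 (bottom), as counts per library on an axis from 0, stages at left and Upf2 knockout beside control at right. At Kmt2e the 5′ boundary bars stay between 38 and 81 reads while spliced reads run between 30 and 306; at Kdm7a the knockout libraries have 15 and 15 reads across the 5′ boundary.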

How the data were processed

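The deposited expression table gives TPM per gene. The authors trimmed reads with Trimmomatic, aligned them with STAR 2.5.2a and quantified with RSEM on mm10, per the submitters' processing notes. The table is labelled FPKM, but each column sums to the same total, that of TPM, so its values are read as TPM. The intron tables hold, per the deposited files' columns, signal (coverage depth), counts of boundary and spliced reads, and a retention ratio (a fraction); the sources used here do not name the program behind them. The knockout tables use a slightly different intron list, so only the 204362 shared introns were used, and of these the 166494 without marks.

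Expression was tested with limma 3.58.1 in R 4.3.3 on log2(TPM + 1) over 13126 genes, with all 5 groups in the fit. The test is of the difference as measured, and printed changes have the median gene's shift subtracted (-0.28 in cMoP against MDP, 0.19 in Ly6Chi against cMoP, 0.04 in Ly6Clo against Ly6Chi and -0.12 in the knockout). The added 1 TPM understates changes of low genes. Retention was tested with edgeR 4.0.16, as boundary against spliced counts, in introns with at least 20 boundary and spliced reads together in every library and at least 20 boundary reads in all. DESeq2 1.42.0 was an alternative. Recomputing gave the deposited retention ratio within 0.0001 for 95.2% to 97.0% of values, depending on the library. Both tests were tried on simulated data. Transcript lengths and intron positions are from GENCODE M21. Wilson intervals of shares cover counting error only. Members and lists were chosen with earlier results of these data known. The naming rule took members with the 8 largest called changes each way, the most abundant of each family, and those whose call changes under median centring. Other members given with values fall outside this rule, among them Sirt3 and Kmt2a in cMoP against MDP and Kdm7a and Kmt2e in the knockout.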

Additional observations from a re-analysis of the deposited data

How the results depend on the processing

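Counts of called members depended on which libraries and which filter were used. In cMoP against MDP, 0 members were called, and dropping the filter on low values gave 1, beside 2348 of 25047 genes. In Ly6Chi against cMoP, the 29 called members became 14 with no filter and 9 to 38 when single libraries were left out. In Ly6Clo against Ly6Chi, the 3 became 5 with quantile scaling, 10 when only those groups were fitted, 7 with centring within length classes, and 0 to 11 when single libraries were left out. Called member introns, 0 in each comparison, numbered 0 to 30 in cMoP against MDP, 0 to 46 in Ly6Chi against cMoP, 0 to 1 in Ly6Clo against Ly6Chi and 0 to 2 in the knockout when single libraries were left out. Scaling the kinds of read apart gave 1 in Ly6Chi against cMoP and 1 in the knockout; fitting only the compared groups gave 1 in Ly6Clo against Ly6Chi (Hdac2, chr10:36997503-36997966) and 1 in the knockout, and no count filter gave 1 in the knockout. The share of member introns with a ratio of at least 0.1 was 2.52% in MDP, 0.943% in cMoP, 2.20% in Ly6Chi, 3.77% in Ly6Clo and 1.89% in the knockout among introns without a warning (2.03, 1.47, 2.29, 2.56 and 1.91% over all genes). From boundary reads it was 9.38% in MDP, 7.71% in cMoP, 10.2% in Ly6Chi, 12.3% in Ly6Clo and 8.38% in the knockout. The boundary-read share was not computed over all genes. The Kmt2b change of 0.50 in Ly6Chi against cMoP reversed to -0.020 with centring within length classes. The cause of these shifts was not tested. The naming rule gave 50 gene and comparison pairs with 641 alternative values. Of these values 528 kept direction and side of the threshold, 89 lost the call, 23 gained it and 1 reversed.

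No label pairs the same-numbered libraries of different groups. Their deviations correlated at 0.063 between Ly6Chi and cMoP and at -0.13 between knockout and control. With 2 libraries a group, these correlations cannot decide whether such libraries were paired. With the replicate block, 22 members were called in Ly6Chi against cMoP and 0 in the knockout, beside 6331 and 0 of 13126 genes. Called member introns were 0 in both, beside 5 and 1 of 48132 introns. With the knockout numbers crossed, an alternative chosen after seeing the data, 0 members and 0 member introns were called. Over all features that fit called 0 of 13126 genes and 1 of 48132 introns. The centring settings within length classes were also chosen after seeing the data.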

Other observations

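Other chromatin regulators that are not members were called in Ly6Clo against Ly6Chi in the same limma fit. Of 25 other histone methyltransferases 0 rose and 5 fell, where limma called 5.9% of all genes higher and 7.12% lower. Ezh2, the catalytic subunit of Polycomb repressive complex 2, had 19.4 TPM in Ly6Clo against 79.3 and 75.2 TPM in Ly6Chi, a relative log2 change of -1.98 ± 0.14 (SE, limma adjusted p = 0.000941). Suv39h1, which writes H3K9 methylation in heterochromatin, had 15.3 TPM in Ly6Clo against 39.7 and 38.3 TPM in Ly6Chi, a change of -1.33 ± 0.19 (SE, limma adjusted p = 0.0105). Of 21 Polycomb genes 2 rose and 2 fell. Phf19, an accessory subunit of the same complex, had 1.22 TPM in Ly6Clo against 9.37 and 9.79 TPM in Ly6Chi, and its relative Phf1 had 62.0 TPM in Ly6Clo against 17.1 and 16.1 TPM. COMPASS partners fell in 2 of 14 cases. The marker differences of the Ly6Clo library apply to these genes as well.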
